A study of Mus musculus with 8 samples.

Results

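The collagen genes are described here in quiescent muscle stem cells sorted at a young and an old age, as DNA methylation measured by whole-genome bisulfite sequencing. The 42 members are collagen chain genes given by name, all on autosomes, of 21631 protein-coding genes placed on chromosomes 1 to 19 and X. For each member, cytosines within 2000 bp of both gene ends and inside the gene span were taken, on the GRCm38 (mm10) build. The members comprise 11 fibrillar chains, 6 basement membrane chains and 25 other chains.

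All animals were C57BL/6 males with no genetic change or treatment named in the labels. The young group held 4 mice aged 4 months and the old group 4 mice aged 22 months, with 1 animal per library. Cells came from limb muscles and were sorted for VCAM on the surface, without the blood marker CD45, the endothelial marker CD31 or Sca1. The labels give a range of 115000000 to 200000000 reads for a library. The deposited table holds 1 level per cytosine and age group, not 1 per animal, so no value below has a spread over animals, and the depth behind a single cytosine is unknown. Each level is a smoothed estimate of the percentage of DNA copies methylated there, and neighbouring cytosines often carry the same value. The p-values and false discovery rates (FDR) quoted for single cytosines are those of the authors' deposited table.

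Collagens are secreted proteins of 3 chains wound into a triple helix. Fibrillar collagens such as types I, III and V build the fibres of muscle connective tissue, type IV forms the sheet-like network of the basement membrane that covers each muscle fibre and its stem cells, and type VI forms beaded filaments next to that membrane. Muscle stem cells lie between the fibre and this membrane, and they make some of the collagens of their own niche. Methylation of CpG dinucleotides is usually low where a gene starts within CpG-rich DNA and high along the gene body.

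The CpG content just before the start differed widely between members, and the sequences below were chosen to show that range. They come from RefSeq for GRCm38.p6 and run 5′ to 3′ on the strand of the named gene, with every CpG in capitals. Each covers the 250 bases before the start of the promoter entry, except at the Col4a1 and Col4a2 pair. For Col18a1 the entries name no isoform, so the words long form below mark only the outermost start and not a protein form. The promoter entry can begin at another RefSeq start than the outermost one, which bounds the gene span used for the windows, as for Col4a1 and Col4a4. For Col20a1 the entry starts at chr2:180986535, more than 2000 bp from the outermost start at chr2:180983323.
Col3a1, chr1:45311288-45311537, plus strand: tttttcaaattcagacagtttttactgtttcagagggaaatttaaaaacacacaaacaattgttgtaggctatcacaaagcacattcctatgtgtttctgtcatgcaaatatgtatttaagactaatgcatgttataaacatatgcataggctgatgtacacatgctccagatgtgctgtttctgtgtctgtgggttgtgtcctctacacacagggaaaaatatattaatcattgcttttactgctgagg
Col1a2, chr6:4505368-4505617, plus strand: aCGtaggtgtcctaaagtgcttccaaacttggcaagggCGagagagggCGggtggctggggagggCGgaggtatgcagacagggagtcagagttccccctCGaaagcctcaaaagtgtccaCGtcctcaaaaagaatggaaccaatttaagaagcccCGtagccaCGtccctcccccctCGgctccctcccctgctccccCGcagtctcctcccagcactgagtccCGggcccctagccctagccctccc
Col18a1, long form, chr10:77166531-77166780, minus strand: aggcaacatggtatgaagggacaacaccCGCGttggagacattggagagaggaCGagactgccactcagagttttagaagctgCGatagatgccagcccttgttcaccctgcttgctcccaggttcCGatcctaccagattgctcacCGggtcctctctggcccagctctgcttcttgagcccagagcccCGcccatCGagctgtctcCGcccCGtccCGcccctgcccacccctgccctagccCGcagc
Col18a1, inner start, chr10:77113706-77113955, minus strand: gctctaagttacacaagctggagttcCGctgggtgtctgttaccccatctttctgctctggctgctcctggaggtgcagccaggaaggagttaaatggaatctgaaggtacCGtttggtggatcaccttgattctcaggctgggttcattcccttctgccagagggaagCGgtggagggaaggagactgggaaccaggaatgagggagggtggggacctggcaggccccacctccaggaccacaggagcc
Col4a2, 30 bases over its own start and that of the Col4a1 promoter entry, chr8:11312801-11312830, plus strand: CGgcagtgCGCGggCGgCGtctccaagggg
The Col3a1 stretch held 0 CpGs and therefore no measured cytosine. The Col1a2 stretch held 11, with a mean level of 5.76% in young cells and 7.85% in old cells. At Col18a1 the outermost start's stretch held 12 CpGs, at 8.78% in young cells and 8.08% in old cells, and the inner start's held 3, at 6.37% and 6.02%. The 30 bases at Col4a1 and Col4a2 held 5 CpGs at 1.89% and 2.05%.

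RefSeq promoters of 300 bp (250 before and 50 after the start) were matched for 33 members, 36 sequences in all. The 9 promoters with at least 20 CpGs stood between 1.94% (Col4a1) and 4.05% (Col8a2) in young cells. The 12 promoters with 10 to 19 CpGs had a median of 6.31% in young cells and 5.60% in old cells. Of the promoters with 5 to 9 CpGs, Col10a1 was the most methylated, at 72.4% in young cells and 65.4% in old cells. Col10a1 encodes the network collagen of cartilage that is turning to bone. The promoters of Col3a1 and Col28a1 and the first of Col9a1 held 0 CpGs, and that of Col20a1 held 1 that was not in the table. The pentamer CCAAT, searched on both strands, was in 12 of the 36 promoters (33.3%) and in 37.6% of all 32619 mouse promoters in the RefSeq table.

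Within 2000 bp of the gene start, collagen genes spanned nearly the whole range of methylation. The lowest start window was that of Col4a2, at 4.65% in young cells and 4.36% in old cells, and the highest that of Col28a1, at 79.9% and 78.7%. The mean over the 42 members was 30.7% in young cells and 30.3% in old cells, beside 33.2% and 33.4% over the 20749 protein-coding genes with at least 10 measured cytosines in the window. For 33 members the start was taken from the RefSeq strand. For the other 9 (Col1a1, Col2a1, Col4a3, Col5a2, Col9a3, Col12a1, Col14a1, Col22a1 and Col26a1) the less methylated end stood for it.

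**Figure D1:**
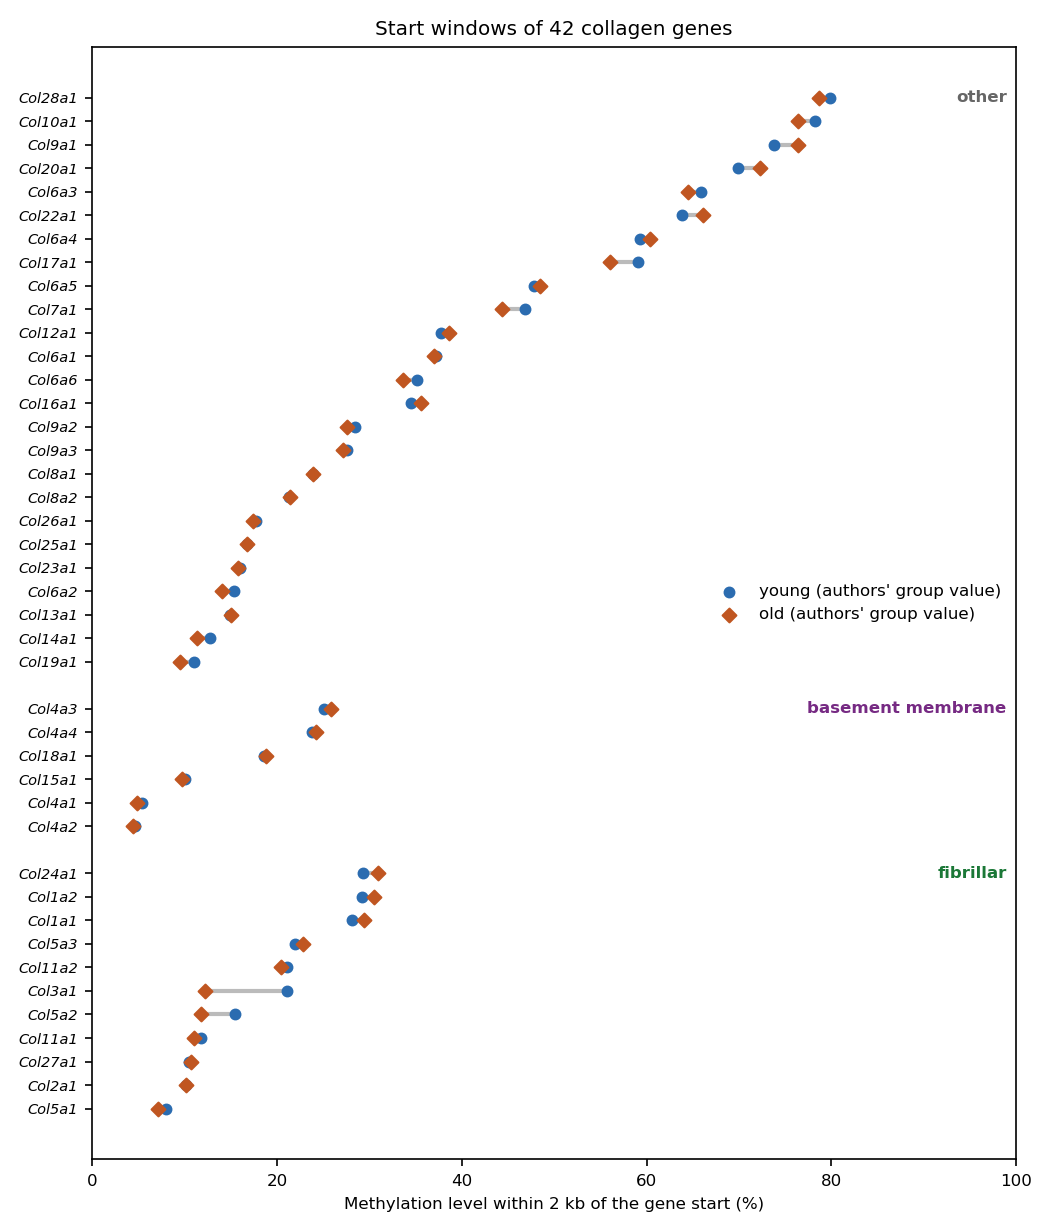
Methylation level within 2000 bp of the start of each of the 42 collagen genes (x axis, percent), grouped by class; circles are the authors' value for young cells and diamonds that for old cells, with 1 value per age and no error bar. The 2 symbols of most genes lie close together, and the widest gap is that of Col3a1 (21.0% in young cells and 12.2% in old cells).

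Mean levels differed more between classes than between ages. Fibrillar starts averaged 18.8% in young cells and 17.9% in old cells, basement membrane starts 14.6% and 14.6%, and the other collagens 39.8% and 39.5%. Old cells had the lower value in 24 of 42 start windows, beside 48.2% of start windows over all genes. The median difference, old minus young, was -0.19 percentage points over the collagens and 0.03 over all genes. By class, 6 of 11 fibrillar, 3 of 6 basement membrane and 15 of 25 other starts had the lower value in old cells. Among the 17 collagen starts under 20% (mean of both ages), 14 were lower in old cells, with a median difference of -0.34 points, beside 54.6% and -0.05 points over the 9186 such starts of all genes. Among the 17 collagen starts between 20% and 50%, 6 were lower in old cells, beside 46.8% of all genes in that range. Of the 8 collagen starts at 50% or more, 4 were lower, beside 40.3% of all genes. Col4a1 and Col4a2 (under 20%) have nearly the same window, as do Col4a3 and Col4a4 (20% to 50%), so each pair counts 1 region 2 times. None of these counts carries a test, since animals cannot be told apart in the table.

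A window was tested with 2 times the median of the authors' deposited p-values over its cytosines, adjusted by Benjamini-Hochberg over all windows of all genes. Of 41348 end windows over all genes, 0 were called at 0.05 (0% called) and 8 had an unadjusted value under 0.05. Over the cytosines at all gene ends, 0.933% had a p under 0.05 in the authors' deposited table, so window medians that low were rare in any gene. A lack of calls therefore cannot show that a window did not differ. Of the 83 collagen end windows, 0 were called and 0 had an unadjusted value under 0.05; the smallest was 0.0696, at the far end of Col9a1. With the smallest p of the window times its number of cytosines instead, 3 collagen windows were called (the start of Col1a2 and the far ends of Col19a1 and Col28a1), beside 5.53% of all end windows.

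**Figure D2:**
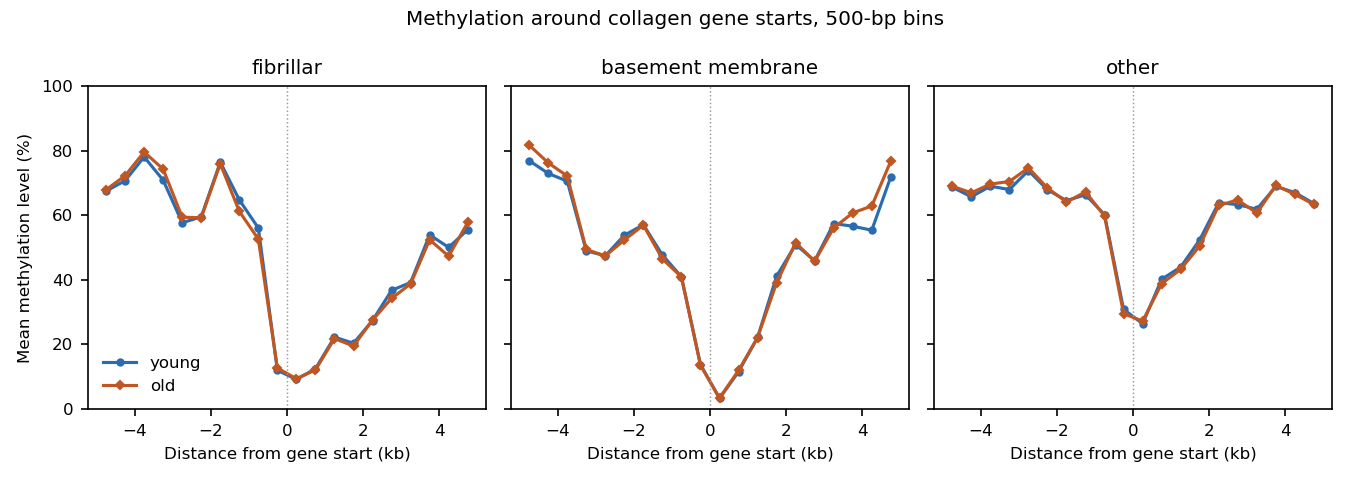
Mean methylation level (y axis, percent) in bins of 500 bp by distance from the gene start (x axis, kb) for fibrillar, basement membrane and other collagens, with circles for young cells and diamonds for old cells. In the bin just after the start, young cells stood at 9.19% for fibrillar, 3.30% for basement membrane and 26.4% for other collagens. The widest gap between ages in a basement membrane bin was at 4000 to 4500 bp into the gene, with 55.4% in young cells and 62.9% in old cells over 5 genes.

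The fibrillar chains carry the 2 start windows in which old cells were furthest below young cells. Col3a1, which encodes the type III collagen of loose connective tissue, stood at 21.0% in young cells and 12.2% in old cells over 21 cytosines, a difference of -8.79 points. All 21 cytosines had the lower value in old cells. They are not 21 separate measurements, since the 12 within 500 bp of the start all carried the same smoothed levels, 7.75% and 5.72%. The 5 cytosines before the start carried most of the difference, at 57.9% in young cells and 30.4% in old cells. Their single differences ran from -29.43 to -27.06 points. The 16 cytosines after the start stood at 9.48% and 6.56%. In the authors' deposited table, 2 of the 5 upstream cytosines had p = 0.0009326 with an FDR of 0.2258, and the cytosines paired with them on the other strand had p = 0.1091 and p = 0.1497 at the same levels. No cytosine of this window passed the FDR of 0.05.

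A start window with a difference at or below that of Col3a1 was found for 52 of the 20749 genes (0.251%). Windows with few cytosines vary more, and 49 of these 52 were among the 1951 windows with under 30 cytosines (2.51% of those). With 1000 bp in place of 2000 bp, the Col3a1 difference was -4.14 points. Without Col3a1 the mean difference over the collagen starts was -0.176 points, against -0.381 with it.

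Col5a2 encodes a chain of type V collagen, which sets the width of type I fibrils, and lies 24.6 kb from Col3a1 on chromosome 1. Its start window stood at 15.5% in young cells and 11.8% in old cells over 65 cytosines, and 61 of them had the lower value in old cells. The 6 cytosines before the start all carried the same smoothed levels, 44.0% and 31.1%, and the 59 after it averaged 12.6% and 9.80%. Many of those 59 also shared levels, so the 61 are not separate measurements. The smallest p among them in the authors' deposited table was 0.0597. The 24.6 kb gap between Col3a1 and Col5a2 separates their far ends. The starts used, at chr1:45311538 and chr1:45503282, lie on the outer sides. With 92 cytosines, the gap stood at 75.9% in young cells and 76.9% in old cells, with the opposite sign to both starts.

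Over the whole start window the type I genes had the opposite sign, but beyond 500 bp upstream they too were lower in old cells. Col1a2 stood at 29.2% in young cells and 30.5% in old cells over the whole window. Within 500 bp of the start, all 67 cytosines had the higher value in old cells, with means of 7.61% and 10.2%. Beyond 500 bp upstream, all 20 cytosines had the lower value in old cells, at 61.2% and 57.3%. Col1a1 stood at 28.1% and 29.5%, and within 500 bp of its start 41 of 44 cytosines were higher in old cells, at 40.5% and 45.1%. Beyond 500 bp upstream of Col1a1, 32 of 40 cytosines were lower in old cells, at 65.1% and 62.4%. Its least methylated stretch of 1309 bp lay further into the gene, at 6.94% and 7.74%. The smallest p within 500 bp of either start in the authors' deposited table was 0.1915. Many cytosines at both type I starts shared smoothed levels, so these counts are not of separate measurements.

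**Figure D3:**
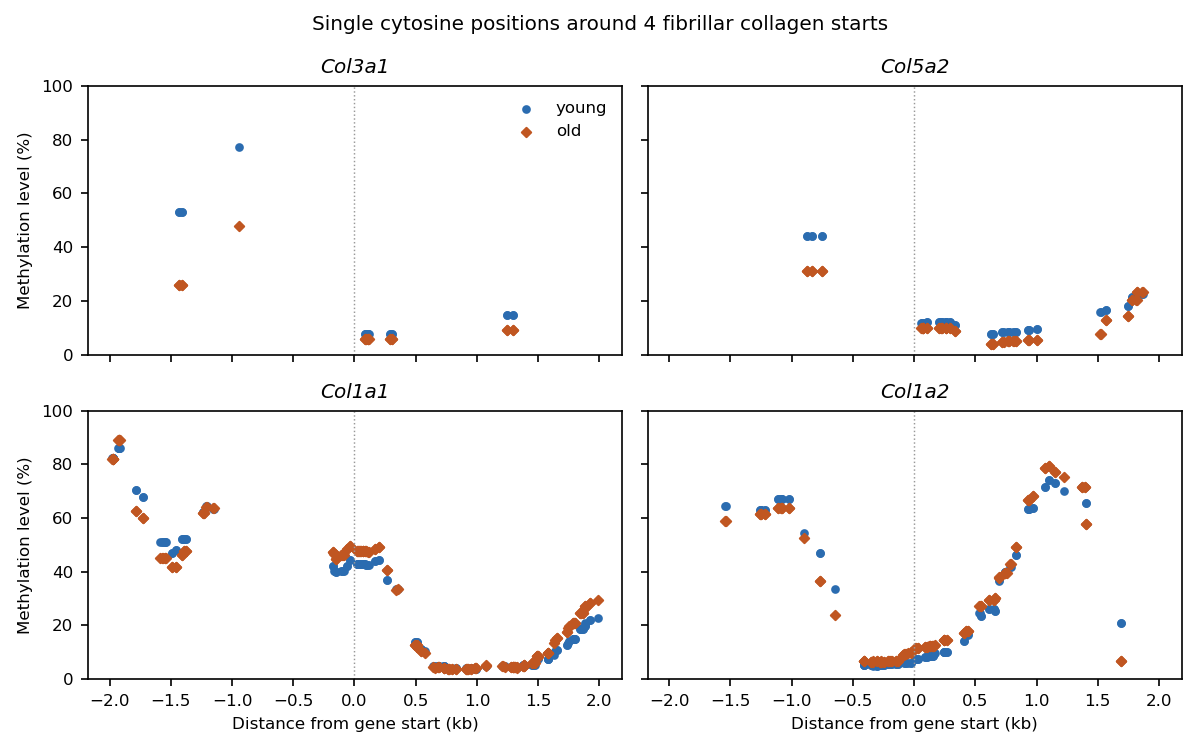
Methylation level (y axis, percent) of single cytosines by distance from the gene start (x axis, kb) for Col3a1, Col5a2, Col1a1 and Col1a2, with circles for young cells and diamonds for old cells. Old cells lie below young cells upstream of Col3a1 (57.9% and 30.4%) and Col5a2 (44.0% and 31.1%), and slightly above them near the starts of Col1a1 and Col1a2. Beyond 500 bp upstream, old cells were also lower at Col1a1 (65.1% and 62.4%) and Col1a2 (61.2% and 57.3%).

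Col1a2 also held the collagen end-window cytosine with the smallest p. It lay 1690 bp into the gene, at chr6:4507308, and stood at 21.1% in young cells and 6.89% in old cells, with p = 1.168e-11 in the authors' deposited table. The authors' p for the cytosine on the other strand of the same CpG was 0.1317, at the same levels.

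Of the other fibrillar starts, Col5a1 stood at 8.001% in young cells and 7.11% in old cells, and Col5a3 at 21.9% and 22.8%. The cartilage-type chains Col2a1 (10.1% and 10.1%), Col11a1 (11.7% and 11.0%) and Col11a2 (21.1% and 20.5%) showed differences under 1 point. Col27a1 stood at 10.5% and 10.7%, and Col24a1 at 29.3% and 30.9%. The start window of Col11a2 also holds an end of Rxrb, so its level describes both genes.

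Type IV genes are arranged in head-to-head pairs that share 1 start region. Col4a1 and Col4a2 encode the chains of the common basement membrane network, and their spans overlap by 85 bp. They share an unbroken stretch of 2979 bp in which the mean of both ages stayed under 20%, with 351 cytosines at 3.48% in young cells and 3.17% in old cells. From 1000 to 2000 bp into Col4a2 the level was 20.9% and 17.2%, and over the same distance into Col4a1 it was 12.7% and 13.1%. From 5000 to 10000 bp, old cells had the higher value on both sides, with 64.03% and 67.98% in Col4a1 and 77.4% and 81.0% in Col4a2. In the authors' deposited table, 1 of the 119 cytosines in the far Col4a1 bin and 7 of the 96 in the far Col4a2 bin had a p below 0.05, beside 2.18% of collagen span cytosines and 2.002% of cytosines in all spans.

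Col4a3 and Col4a4 encode chains of the specialised network known from the kidney, and their spans overlap by 114 bp. Their shared stretch under 20% was shorter, 1260 bp with 92 cytosines, at 4.48% in young cells and 4.86% in old cells. At 1000 to 2000 bp into Col4a4 the level was 83.6% and 86.6%, and into Col4a3 it was 80.3% and 75.0%. The signs on the 2 sides of this pair were thus opposite at that distance, on few cytosines. In the authors' deposited table, 1 of the 16 in Col4a4 and 0 of the 10 in Col4a3 had a p below 0.05. Over the whole start windows, Col4a1 stood at 5.36% and 4.84%, Col4a2 at 4.65% and 4.36%, Col4a3 at 25.1% and 25.9%, and Col4a4 at 23.7% and 24.2%. Paired windows overlap almost entirely, so the 4 genes give 2 regions and not 4 separate measurements.

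**Figure D4:**
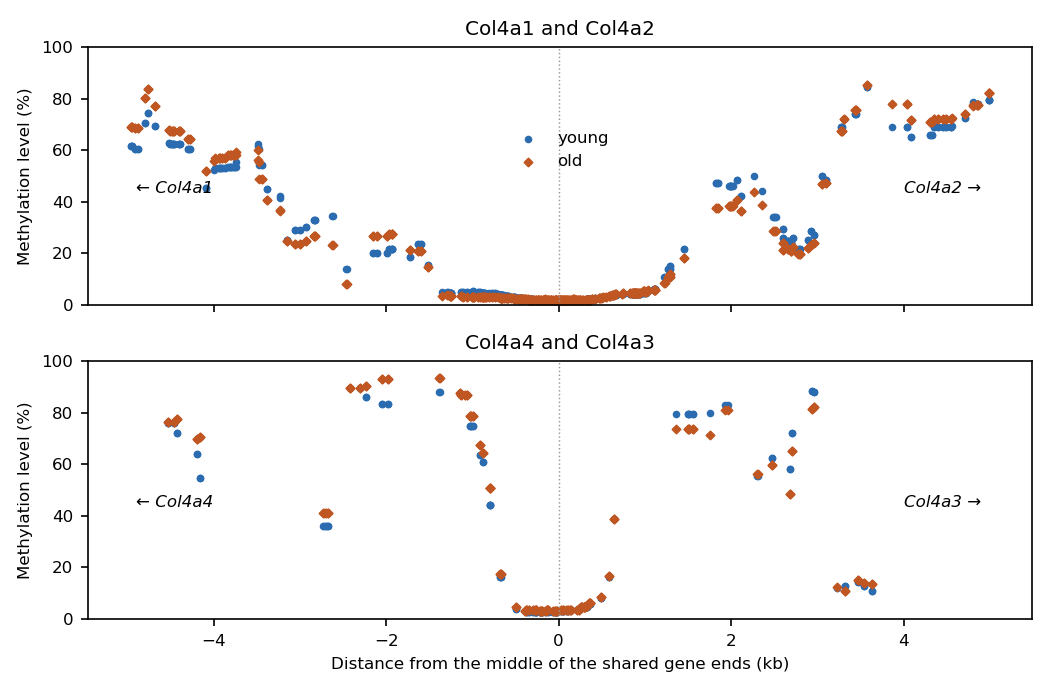
Methylation level (y axis, percent) of single cytosines by distance from the middle of the shared gene ends (x axis, kb) for Col4a1 with Col4a2 and for Col4a4 with Col4a3, with circles for young cells and diamonds for old cells. The stretch at the centre in which the mean of both ages stayed under 20% was 2979 bp long for the first pair and 1260 bp long for the second.

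The remaining basement membrane members, Col15a1 and Col18a1, encode collagens with long sugar chains. Col15a1 stood at 10.01% in young cells and 9.67% in old cells at the start, and Col18a1 at 18.6% and 18.8%. At the far end of Col15a1 the level was 64.1% in young cells and 67.5% in old cells.

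The 6 type VI starts covered a wide range. Col6a2 was the lowest, at 15.3% in young cells and 14.0% in old cells, followed by Col6a6 (35.2% and 33.6%), Col6a1 (37.2% and 36.9%) and Col6a5 (47.8% and 48.5%). Col6a4 stood at 59.3% and 60.4%, and Col6a3 at 65.9% and 64.5%. Col6a1 and Col6a2 lie 85.2 kb apart on chromosome 10, and both read from the minus strand. Col6a4, Col6a5 and Col6a6 lie in a row on chromosome 9 with gaps of 27.8 and 27.9 kb, which stood at 60.4% and 59.8% in young cells and at 60.8% and 60.4% in old cells.

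Among the other collagens the largest differences at the start were found in highly methylated windows. Col17a1, a transmembrane collagen of epithelial anchoring junctions, stood at 59.0% in young cells and 56.0% in old cells. Col7a1, the anchoring fibril collagen of skin, stood at 46.8% and 44.4%. In the other direction, Col9a1 of cartilage fibrils stood at 73.8% and 76.4%, Col20a1 at 69.9% and 72.3%, and Col22a1, a collagen of tissue junctions such as that of muscle and tendon, at 63.9% and 66.1%. The Col20a1 window also holds an end of Arfgap1, and it does not reach the start of the Col20a1 promoter entry. The rest of the class kept within 2 points, from Col19a1 (11.0% and 9.51%) and Col14a1 (12.7% and 11.4%) to Col10a1 (78.3% and 76.4%).

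A stretch of at least 10 cytosines under 20% (mean of both ages) lay at the start of 34 of the 42 collagens (81.0%), beside 69.9% of all genes. The longest stretches at starts had a median of 1305 bp and ran from 440 bp (Col17a1) to 3732 bp (Col2a1). The 8 members without one were Col6a3, Col6a4, Col7a1, Col9a1, Col10a1, Col20a1, Col22a1 and Col28a1. Only cells sorted as muscle stem cells were measured, so levels in other cell types are not known from these data.

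**Figure D5:**
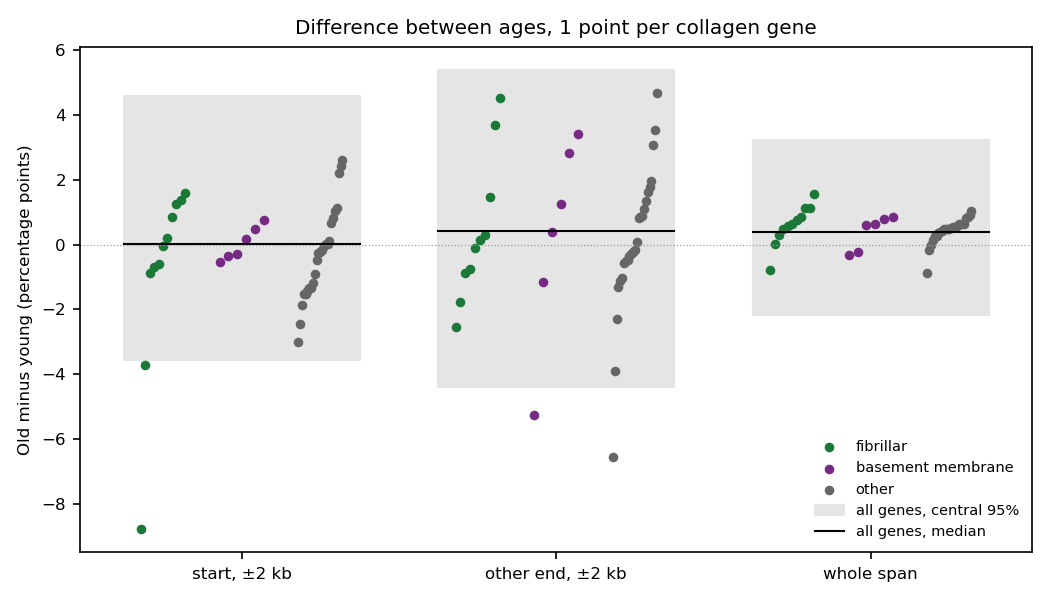
Difference between ages (y axis, old minus young in percentage points) for start windows, other-end windows and whole spans, with 1 point per collagen gene coloured by class. Grey boxes hold the central 95% of all protein-coding genes and black lines mark their medians; the lowest start point is Col3a1 at -8.79 points.

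At the other end of the gene, collagens were highly methylated at both ages, with a mean of 68.2% in young cells and 68.4% in old cells over the 41 members with at least 10 cytosines. Old cells had the lower value at 20 of these 41 ends, beside 39.4% over all genes, and the median differences were 0.06 and 0.42 points. The lowest values in old cells relative to young cells were at Col8a1 (70.6% and 64.1%), Col4a3 (68.8% and 63.5%) and Col19a1 (67.7% and 63.8%). The highest were at Col9a1 (57.5% and 62.2%), Col11a1 (63.1% and 67.6%) and Col24a1 (70.7% and 74.3%). Col3a1 had only 8 cytosines there and was not counted. Col23a1 stood apart with a far end at 17.6% in both groups over 200 cytosines. The next lowest, Col8a2, was at 44.4% in young cells and 44.2% in old cells. Ends of other genes were looked up at collagen starts only, so the Col23a1 level may describe a neighbouring gene too.

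Over whole gene spans, old cells had the higher value in 36 of 42 collagens, beside 72% of all genes. The mean level was 64.4% in young cells and 64.9% in old cells, and the median difference was 0.54 points beside 0.39 over all genes. The largest positive differences were those of Col11a1 (61.7% and 63.3%), Col1a1 (55.6% and 56.7%) and Col3a1 (65.1% and 66.2%). Col3a1 thus had the most negative start window and 1 of the 3 most positive spans. The 6 members with the opposite sign, beside 28% of all genes, were Col10a1 (84.1% and 83.2%), Col5a2 (73.6% and 72.8%), Col4a3 (63.4% and 63.1%), Col4a4 (67.2% and 67.0%), Col6a2 (73.8% and 73.6%) and Col7a1 (69.7% and 69.7%). By the same test as for the ends, 0 of 42 collagen spans were called, beside 0% of 20483 spans over all genes, of which 2 had an unadjusted value under 0.05. With the smallest p times the number of cytosines, 24 of 42 collagen spans were called, beside 30.9% of all spans. Such a call needs only 1 cytosine. Collagen genes had a median length of 114 kb including the margins, against 21.3 kb over all genes. None of the span shares here was matched for length.

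Single cytosines past the authors' FDR of 0.05 were no more frequent in collagens than elsewhere. In the end windows 6 of 10107 collagen cytosines were called (0.0594%), beside 0.0652% at the ends of all genes, with 3 higher in old cells (0.036% at all ends) and 3 lower (0.0292%). Inside the spans 119 of 83386 were called (0.143%), beside 0.16% in all spans and 0.236% of all cytosines. Of the 119, 66 were higher in old cells (0.089% of cytosines in all spans were) and 53 lower (0.0715%). Together, 124 separate cytosines were called in 29 members, and 13 members had 0. Genes with a call were not counted over all genes, so the 29 has no share beside it. Collagens are also longer, with a median of 114 kb including the margins against 21.3 kb, so it is no result about collagens.

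Among members with a call, the share called ran from 1 of 3931 cytosines in Col4a2 to 3 of 244 in Col3a1, with 5 of 1112 in Col9a1. These counts are small. The Col9a1 calls include both strands of 1 CpG, and the Col3a1 calls include cytosines with the same smoothed levels. The counts per gene stand beside 0.143% of cytosines called in collagen spans and 0.16% in all spans. Col22a1 had 20 of 3864 cytosines called (12 higher and 8 lower in old cells), Col25a1 17 of 6315 (9 and 8), Col19a1 15 of 4050 (10 and 5), Col14a1 7 of 2896 (5 and 2), and Col23a1 5 of 6242 (3 and 2). The median difference of the 124 calls was 16.5 points in either direction. Of these calls, 117 sat at the most common value of the authors' dispersion in either group (0.0438 in young or 0.0434 in old cells), which 22.5% of all collagen span cytosines carried. That was so over the whole table too, since 94.1% of calls in collagen spans, 92.4% in all spans and 91.7% of all calls sat there. For 122 calls the cytosine on the other strand of the CpG was listed, and 4 of those partners were called, with a median partner p of 0.0888. The part of the dispersion value in these calls was not tested.

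The 4 called partners form 2 CpGs called on both strands. The first lies inside Col22a1 at chr15:71990285-71990286 and stood at 36.3% in young cells and 84.2% in old cells. The second lies inside Col9a1 at chr1:24182995-24182996 and stood at 53.9% and 91.7%. Neither sat at the most common dispersion value.

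Short runs were searched as at least 5 cytosines of 1 sign whose p in the authors' deposited table was below 0.01, with gaps of at most 100 bp. The collagens held 7 runs in 6 of 42 genes (14.3%), beside 3.82% of all genes. Collagens are long, with a median of 114 kb including the margins against 21.3 kb over all genes. Among genes of 30 to 430 kb, 13.5% of 37 collagens (median 125 kb) and 6.59% of 8055 genes (median 61.6 kb) held a run, so lengths still differed. Per megabase there were 1.20 runs in these collagens and 0.789 in these genes, and 1.38 and 0.797 without the limits on length. These shares rest on 7 runs and carry no test.

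The fibril-associated collagen genes Col9a1 and Col19a1, whose far ends face each other 4.94 kb apart on chromosome 1, held 3 of the 7 runs. The first lies 76 bp beyond Col9a1 (chr1:24252814-24253045) and stood at 51.7% in young cells and 76.2% in old cells over 8 cytosines, 1 of them past the FDR of 0.05. The second lies 738 bp beyond Col9a1 (chr1:24253476-24253484) with the opposite sign, at 69.9% and 52.8%. The third lies inside Col19a1 (chr1:24472141-24472333), 116 kb from its start, at 74.8% and 54.3%. Over the whole gap between both genes the level was 69.6% in young cells and 70.4% in old cells.

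The other 4 runs were spread over 4 genes. Inside Col4a3 a run of 233 bp (chr1:82666820-82667052) stood at 57.2% in young cells and 75.9% in old cells. A run 464 bp beyond Col9a2 (chr4:121055789-121055979) stood at 35.6% and 54.9%. Inside Col6a4 (chr9:106022831-106022915) the level was 67.1% and 48.6%. Inside Col18a1 (chr10:77101536-77101605) it was 95.8% and 80.8%, with 1 cytosine past the FDR of 0.05. Every run held cytosines at the most common dispersion value, and without them 0 runs remained.

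The dispersion that the table gives beside each level, a number from 0 to 1 that its header does not define, barely differed between ages at collagen starts. It averaged 0.0492 in young and 0.0494 in old cells, beside 0.0483 and 0.0485 over all genes, and was higher in old cells for 17 of 42 collagens, beside 44.1% of all genes. Over spans it was higher in old cells for 33 of 42, beside 58.0%. The widest single change was at the far end of Col15a1, from 0.0607 in young to 0.0753 in old cells.

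The genes that build, cut and sense collagens were described in the same way, with 50 genes in 4 roles. For 14 of them the less methylated end stood for the start. At their starts 24 of 50 had the lower value in old cells (48.2% of all genes), with a median difference of 0.03 points, and 0 windows were called. For chain folding and modification the split was 10 higher and 10 lower, for propeptide cleavage and crosslinking 7 and 6, for receptors 5 and 6, and for collagenases 4 and 2. The lowest values in old cells relative to young cells were at Plod2, a lysyl hydroxylase (51.0% and 48.5%), and Calcr, the calcitonin receptor that also binds type V collagen on muscle stem cells (12.3% and 10.6%). The highest were at the collagenase gene Mmp13 (70.5% and 74.9%) and at Lair1, an inhibitory collagen receptor of blood cells (58.1% and 60.8%). Over spans 41 of the 50 had the higher value in old cells (72% of all genes), with a median difference of 0.51 points. In the authors' deposited table, 58 of 49878 span cytosines of these genes passed the FDR of 0.05 (0.116%), beside 0.16% in all spans.

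As a check of the labelled cell type, starts of 6 muscle stem cell genes (Pax7, Myf5, Vcam1, Calcr, Sdc4 and Itga7) stood between 4.33% and 19.6% in young cells. Starts of 3 fibro-adipogenic genes (Pdgfra, Ly6a and Dcn) stood between 10.3% and 48.0%, of 3 endothelial genes between 23.8% and 70.01%, and of 3 blood genes between 29.1% and 73.8%. For 8 of these 15 genes, Vcam1 and Itga7 among them, the less methylated end stood for the start, which favours low values. The old-cell ranges were 4.55% to 19.7%, 10.3% to 53.7%, 23.3% to 70.7% and 27.5% to 72.9%. A methylation level is no measure of expression, so these values describe the loci and not the purity of the cells, and their part in the collagen values was not tested.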

How the data were processed

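Whole-genome bisulfite libraries of 4 young and 4 old mice were assigned to groups from the labelled age. The submitters' processing notes name the builds mm10 and GRCm38 and the tools edgeR, Bismark and Trim Galore. Their roles, their versions and the tool behind the smoothing and test were not given in the sources used here. Per the file headers, the authors deposited 1 methylation level (mu, a fraction) per cytosine and age. The deposited dispersion (phi) was treated as a score of unknown definition. The authors also deposited a p-value and its FDR for old against young per cytosine.

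Levels were averaged in percent over cytosines with equal weight (Python 3.11.15, numpy 2.4.6, pandas 2.3.3). The deposited positions count from 0 and were raised by 1, which puts 93.8% of promoter CpGs on listed cytosines. Windows needed at least 10 cytosines. The window test, tested on simulated data, missed most changes where the simulated error was large. It takes the authors' p-values as they are, so smoothing or error in them carries over. Values per animal and read counts were not analysed here, so no test over animals was run. Smoothing makes neighbouring cytosines dependent and flattens narrow differences.

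Members, classes and lists were chosen with earlier results of these data known. Named were collagens of muscle matrix, basal lamina and niche, the type IV pairs and neighbouring collagens, the 3 largest differences in each direction per window, the members with most calls, every member with a run, and the 2 extreme pathway genes in each direction at the start. Others named at promoters, stretches and dispersion were chosen after their values were seen.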

Additional observations from a re-analysis of the deposited data

How the results depend on the processing

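No paired analysis was possible because the table gives 1 value per age group, and for the same reason no animal could be left out in turn. The mean difference at collagen starts (-0.381 points) was -0.227 with each cytosine weighing the same. Chosen after seeing the data, the median over members gave -0.192 and leaving out Col3a1 gave -0.176. At the other ends (0.203 points) the mean was 0.416 with each cytosine weighing the same and 0.347 with at least 5 cytosines, and the median, also added later, was 0.0634. The span difference (0.476) kept its sign and moved by less than 1.5 times under every alternative run. With windows of 1000 bp, added later, the dispersion difference at starts went from 0.000133 to -0.000485. At an FDR of 0.01 the called cytosines were 2 at ends and 71 in spans. Without the most common dispersion value they were 0 and 7, and there were 0 runs. Runs of at least 10 cytosines also numbered 0. The smallest p times the number of cytosines called 3 end windows and 24 spans. The cause of these shifts was not tested. For single members, windows of 1000 bp changed the sign of 6 of 41 starts, 8 of 37 other ends and 2 of 42 spans. Depth per cytosine is unknown, so small differences cannot be set against counting error.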

Other observations

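Outside the starts, 143 stretches of at least 10 cytosines under 20% (mean of both ages) lay inside the bodies of 32 of the 42 collagens (76.2%), beside 32.8% of all genes. Per megabase of span there were 29.1 in collagens and 19.1 in all genes. This comparison was added after seeing the data and carries no test. The pair Col4a1 and Col4a2 held the most, with 12 in Col4a2 (8511 bp in all) and 10 in Col4a1 (7382 bp). Col13a1, Col19a1 and Col23a1 held 9 each. Among members with no such stretch at the start, Col22a1 held 4 inside the gene, Col6a3 and Col28a1 3 each and Col9a1 2, while Col6a4, Col7a1, Col10a1 and Col20a1 held 0. Col1a1, Col1a2, Col5a2, Col6a2, Col11a1 and Col11a2 had a stretch at the start and 0 elsewhere in the gene.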
